A study of Mus musculus with 45 samples.

Results

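The genes described are 10 regulators of mitochondrial apoptosis of the BCL2 family: Bcl2, Bcl2l1, Mcl1, Bcl2a1a, Bcl2a1b, Bcl2a1d, Bcl2l11, Bbc3, Bax and Bak1. They were taken by name from 3 tables of counts, and 10 of 10 were listed in each, among 55450 genes for slice microglia, 47643 for adult microglia and 43411 for brain tissue (56039 genes in all). All 45 samples came from C57BL/6 mice, and no group carried a transgene or deletion per the labels. Slice microglia were live CD11b positive, CD45 intermediate cells sorted from brain slices of neonatal mice after 2 weeks in culture and a last 24 h in medium only (9 samples), with 50 ng/mL TNF (11 samples) or with 20 ng/mL GM-CSF (9 samples), and each sample pooled 3 slices per the labels. Adult microglia were sorted by the same gate from mice 10 to 15 weeks of age, 24 h after 1 mg/kg LPS (4 samples) or PBS (4 samples). Brain tissue of mice in the same age range was frozen 24 h after 1 mg/kg LPS (4 samples) or without treatment (4 samples), so that its controls, unlike the PBS mice, had received no injection.

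BCL2 family proteins decide whether the outer membrane of the mitochondrion is opened, which releases cytochrome c and starts the caspases that take a cell apart. The pro-survival members (BCL2, BCL-XL from Bcl2l1, MCL1 and the A1 proteins from the Bcl2a1 genes) hold the pore formers BAX and BAK in check. BH3-only proteins such as BIM (from Bcl2l11) and PUMA (from Bbc3) bind the pro-survival proteins or the pore formers and tip the balance towards death. A1 is best known from blood cells, where inflammatory signals through NF-kB switch it on, and MCL1 is short-lived, so that its level follows its synthesis closely.

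Slice libraries held 5973364 to 9165485 counts, adult libraries 11391564 to 14216005, and brain libraries 8199863 to 10368578. The 5 microglial markers examined (P2ry12, Tmem119, Cx3cr1, Csf1r and Sall1) were above 1 CPM (counts per 1e6 library counts, after TMM scaling) on average in every group. Their summed level was 8674 to 12097 CPM in medium and lower with TNF (4833 to 6633) and GM-CSF (5961 to 7439). It was 34447 to 38327 CPM in adult microglia with PBS and 22986 to 26035 CPM with LPS, so this sum moved with each treatment of microglia. Border macrophage markers (4 of 4 listed) summed to 89.7 to 214 CPM in medium, 35.2 to 108 with TNF and 134 to 299.8 with GM-CSF. Of the neutrophil markers, mean S100a8 was 2.53, 11.8 and 8.56 CPM in these groups, S100a9 0.863, 4.59 and 5.23, and Mmp8 0.628, 3.51 and 2.69. Their ranges overlapped. Csf3r, the largest of that list, was lower with both (150, 114 and 79.7 CPM), and Ly6g was at 0. In adult microglia LPS libraries were below PBS libraries without overlap for the endothelial markers (10.2 to 13.7 against 28.9 to 36.3 CPM, nearly all Pecam1, with Cldn5 at 0). The same held for the monocyte markers (3.99 to 6.49 against 10.95 to 15.4 CPM) and the oligodendrocyte markers (57.9 to 67.5 against 74.8 to 87.3 CPM). It also held for S100a8 (mean 2.04 against 14.6 CPM) and S100a9 (0.854 against 11.5 CPM), while the neutrophil sum overlapped. The part of these markers in the results below was not tested. The neuronal markers summed to at most 9.77 CPM in slice microglia and 1.53 CPM in adult microglia, against at least 4282 CPM in brain tissue. The LPS library of adult microglia labelled replicate 2 stood apart from the others of its group, with the lowest mean correlation with them (0.979, against 0.986 to 0.987) and the fewest counts, and values against PBS that overlap through it or pass the limit without it are also given without it. Per the study the adult and brain samples came from independent mice, and the slice samples from slices treated separately in 4 independent experiments. The labels do not tie slice samples to experiments, so samples of an experiment may be more alike than the tests assume. The titles of the slice samples carry 4 codes (1A, 1B, 2A and 2B), which the labels do not explain. Whether they are the 4 experiments is not stated, and the reported fits hold no term for them. Some levels differed by code. From 1A to 2B mean Bcl2a1a went from 8.55 to 17.2 CPM in medium, 77.6 to 126 with TNF and 61.2 to 79.6 with GM-CSF. Mean Mcl1 went from 471 to 427, 846 to 715 and 398 to 352 CPM.

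In the GRCm38 assembly the pro-survival genes lie at chr1:106538178-106714274 (Bcl2, minus strand), chr2:152780668-152831728 (Bcl2l1, minus) and chr3:95658788-95663176 (Mcl1, plus). Bcl2l11 lies at chr2:128126038-128162547 and Bbc3 at chr7:16308393-16318205, both on the plus strand. Bax lies at chr7:45461697-45466898 and Bak1 at chr17:27019810-27029009, both on the minus strand. The Bcl2a1 genes are neighbouring copies on chromosome 9, namely Bcl2a1d at chr9:88723285-88731914 (minus), Bcl2a1a at chr9:88956900-88962419 (plus) and Bcl2a1b at chr9:89199209-89207827 (plus). The files list them as ENSMUSG00000057329 (Bcl2), ENSMUSG00000007659 (Bcl2l1), ENSMUSG00000038612 (Mcl1), ENSMUSG00000102037 (Bcl2a1a), ENSMUSG00000089929 (Bcl2a1b), ENSMUSG00000099974 (Bcl2a1d), ENSMUSG00000027381 (Bcl2l11), ENSMUSG00000002083 (Bbc3), ENSMUSG00000003873 (Bax) and ENSMUSG00000057789 (Bak1), all annotated as protein coding. Some members share exon bases with another gene, so that reads there cannot be assigned with certainty. This held for 6.09% of the exon bases of Bcl2 (D630008O14Rik, opposite strand), 12.2% of Bax (Gm45808, same strand) and 7.35% and 18.2% of Bak1 (both annotations of Ggnbp1, opposite strand).

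The 3 Bcl2a1 copies are shown first by sequence, because what separates them decides how their counts can be read. Over 516 coding bases Bcl2a1a and Bcl2a1b differed at 11 positions (97.9% identity), Bcl2a1a and Bcl2a1d at 7 (98.6%) and Bcl2a1b and Bcl2a1d at 6 (98.8%). The first 75 coding bases hold 6 of the differing positions, which are in capitals (GENCODE M21 transcripts, GRCm38, Bcl2a1a chr9:88957051-88957125 plus, Bcl2a1b chr9:89199360-89199434 plus, Bcl2a1d chr9:88731645-88731719 minus):
Bcl2a1a: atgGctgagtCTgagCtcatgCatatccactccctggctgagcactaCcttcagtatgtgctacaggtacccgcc
Bcl2a1b: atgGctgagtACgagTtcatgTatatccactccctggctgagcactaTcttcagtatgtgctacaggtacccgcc
Bcl2a1d: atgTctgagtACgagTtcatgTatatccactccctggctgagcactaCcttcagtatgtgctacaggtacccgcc
Coding bases 95 to 169 are the same in all 3 copies, and a read of 75 bases from there cannot be told apart (shown for Bcl2a1a, chr9:88957145-88957219):
Bcl2a1a: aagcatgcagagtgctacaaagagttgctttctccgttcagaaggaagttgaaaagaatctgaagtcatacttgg
Of all windows of 75 bases along the transcripts, the read length of the slice libraries, 44.8% were found in no other gene for Bcl2a1a, 31.6% for Bcl2a1b and 32.4% for Bcl2a1d. For windows of 50 bases, the read length of the other tables, the shares were 31%, 20.8% and 20.5%. Per the study the adult microglia libraries were read in pairs. Since either read of a pair can place it, these shares may be too low for them. In addition, 49.1% of the exon bases of Bcl2a1b lie within Gm29094 on the same strand, a gene listed at 0 counts in all 29 slice libraries and at 0 to 62 in adult microglia. How shared reads were counted is not given in the sources used here. The counts of single copies are therefore uncertain, and the sum over the 3 copies is given beside them.

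Levels were compared between genes as CPM per kb of exon, since a long transcript collects more reads. The places of the single Bcl2a1 copies in these orders are uncertain, because most of their reads can be shared with other genes. If shared reads were dropped, these copies stand too low, and Mcl1 need not be the highest. No level per kb was formed for their sum. In slice microglia in medium, Mcl1 was highest at 131.6 ± 8.95 CPM per kb (SD, n = 9), followed by Bcl2a1b (102.5 ± 16.6), Bax (65.9 ± 6.39) and Bcl2l1 (34.6 ± 3.33). The ranges of Mcl1 and Bcl2a1b overlapped, while those of Bcl2a1b, Bax, Bcl2l1 and Bcl2a1a stood apart in that order. Bcl2a1a (14.4 ± 5.67), Bcl2a1d (12.5 ± 3.10) and Bbc3 (8.10 ± 1.47) overlapped each with the next, as did Bcl2l11 (2.78 ± 0.781), Bcl2 (1.63 ± 0.832) and Bak1 (0.726 ± 0.244) further down. Bcl2, which gave the family its name, was thus among the least abundant members per length in these cells.

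Adult microglia with PBS had the same genes at the top and at the bottom, but Bax stood below Bcl2a1a and Bcl2l1 on average. Bcl2a1b (148.6 ± 7.98 CPM per kb, SD, n = 4) and Mcl1 (128.1 ± 8.45) led without overlap, ahead of Bcl2a1a (34.3 ± 2.96), Bcl2l1 (32.6 ± 4.50) and Bax (29.4 ± 1.42), which overlapped in that order. Bcl2a1d, Bcl2l11 and Bbc3 followed at 9.49 ± 0.511, 8.20 ± 0.507 and 7.69 ± 0.315, and Bcl2 (1.37 ± 0.248) and Bak1 (0.616 ± 0.0594) were last. Untreated brain tissue differed. There Bcl2l1 (18.96 ± 0.623) and Mcl1 (18.3 ± 1.24) overlapped at the top, Bax (15.1 ± 0.883) and Bak1 (5.07 ± 0.499) followed without overlap, and the Bcl2a1 copies were last with at most 0.248 CPM per kb on average. The tables were made from different library kits and normalized separately, so levels in different tables stand side by side without a test.

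**Figure D1:**
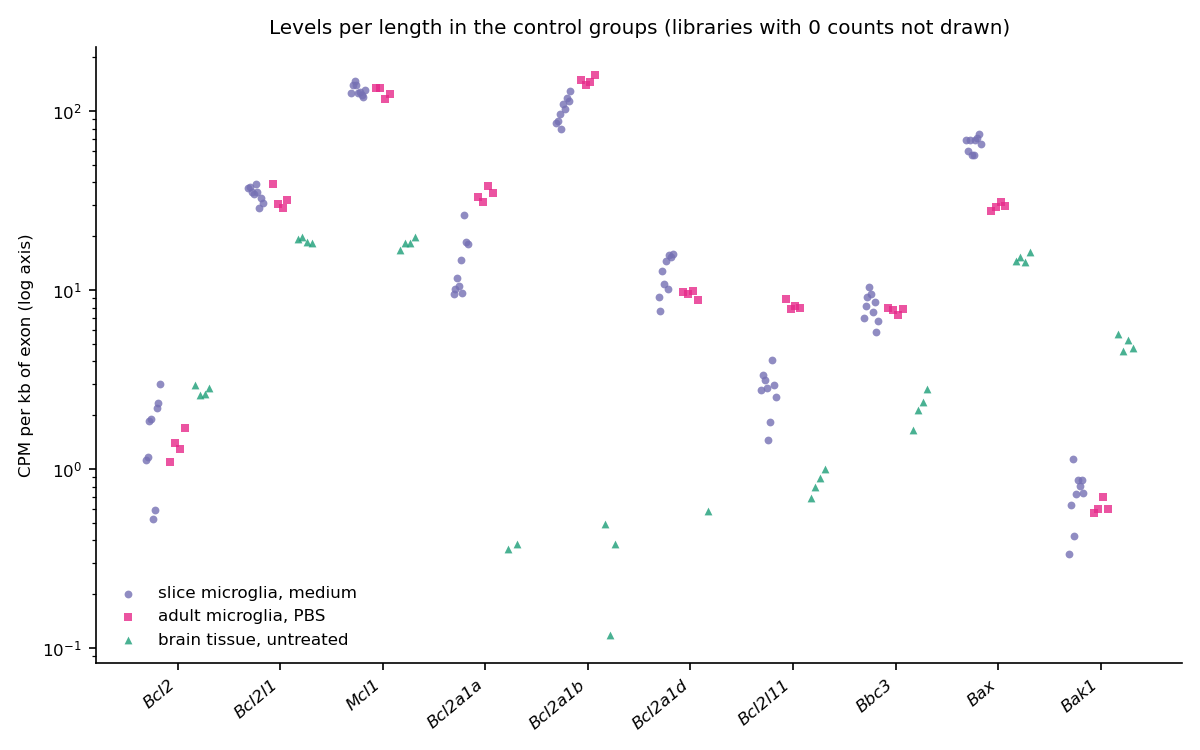
Level of each gene in CPM per kb of exon (log axis) in the libraries of the 3 control groups, 9 of slice microglia in medium, 4 of adult microglia with PBS and 4 of untreated brain tissue. Mcl1 and Bcl2a1b are highest in both kinds of microglia, and the Bcl2a1 copies sit lowest in brain tissue, where libraries with 0 counts are not drawn. The places of the single Bcl2a1 copies are uncertain, because they share reads.

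Changes were tested over all genes with edgeR's quasi-likelihood test. To be called, a gene had to pass both a Benjamini-Hochberg adjusted p of 0.05 and a limit of 1.5 on the fold. In bulk samples such as these, a change in the make-up of the cells and a change in RNA per cell cannot be told apart. With TNF, 6 of 10 members were called: Bcl2l1, Mcl1, Bcl2a1a, Bcl2a1d and Bax rose, and Bcl2l11 fell. Scaling by total counts in place of TMM, or codes 2A and 2B alone, left 4 called, since Bcl2l1 and Bax then stood under the fold limit. Over 11313 genes tested, 9.10% were called higher and 11.7% lower. The median log2 fold change was 0.57 over the members and -0.03 over all genes. With GM-CSF, 4 of 10 were called: the 3 Bcl2a1 copies rose and Bcl2l11 fell, against 4.84% of all genes called higher and 5.96% lower. The medians were 0.20 and -0.04. Of all GM-CSF calls 44.8% were higher, and 63.9% if libraries were scaled by total counts instead of TMM, which left the members called at 4. Both cytokines were compared with the same medium samples, so these sets of calls share their controls. The 3 Bcl2a1 copies share reads, so they are not separate members in these counts and medians. With the copies summed, the sum and Bcl2l11 were called with GM-CSF. For TNF the sum, Bcl2l1, Mcl1, Bax and Bcl2l11 were called.

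In adult microglia, LPS changed 6 of 10 members: Bcl2, Bcl2a1a, Bcl2a1d and Bak1 rose, and Bcl2l11 and Bbc3 fell. Bak1 was not called with DESeq2 in place of edgeR, which left 5 members, nor in 6 of 8 fits that left out a library. Of 12987 genes tested there, 14.4% were called higher and 13.0% lower, with a median log2 fold change of 0.43 over the members and 0.01 over all genes. With the Bcl2a1 copies summed, Bcl2, Bak1, Bcl2l11 and Bbc3 were called and the sum was not. In brain tissue the 3 Bcl2a1 copies had too few counts for the test, and 0 of the other 7 members were called. There 2.63% of 15083 genes were called higher and 0.550% lower, and the medians were 0.12 and 0.00285. In edgeR 2 members (Mcl1 and Bcl2) had an unadjusted p under 0.05, and DESeq2 called 0 members as well.

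**Figure D2:**
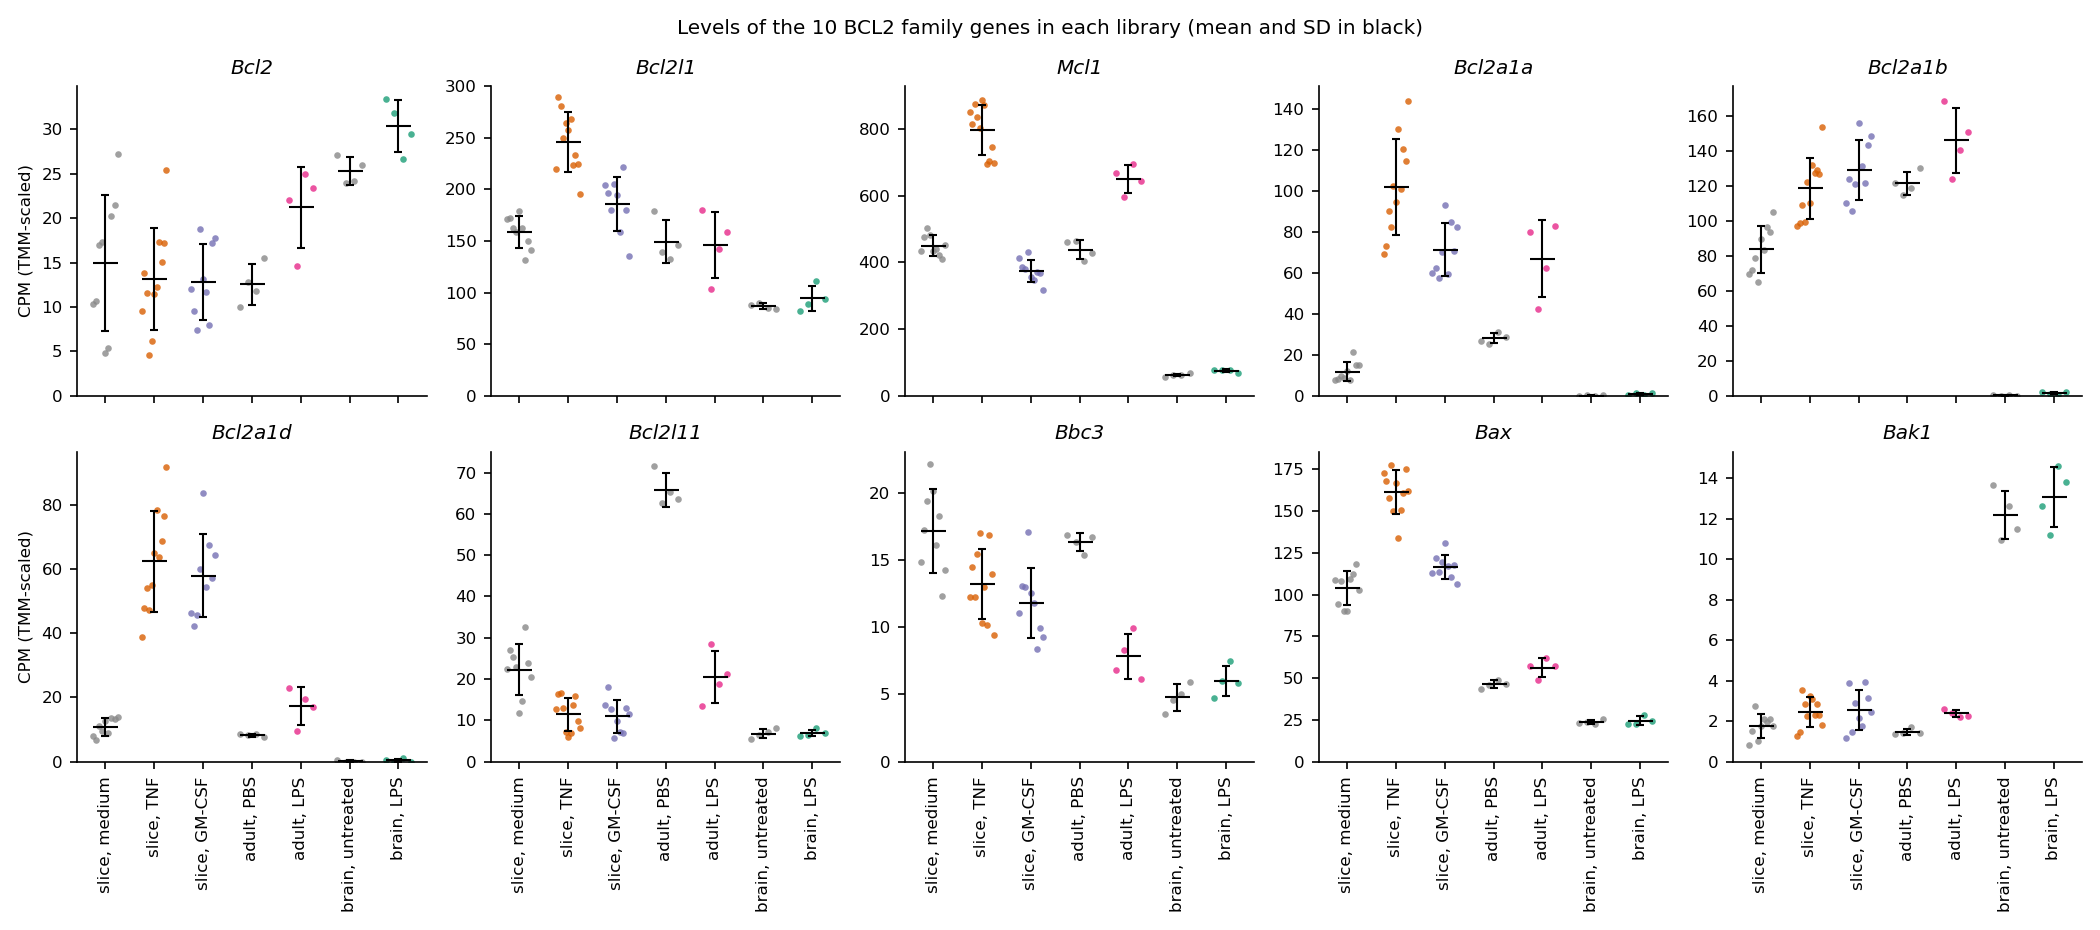
Level of each of the 10 genes in CPM (TMM-scaled, linear axes from 0) in each of the 45 libraries, by group, with the mean and SD of the group in black. Mcl1, Bax, Bcl2a1a and Bcl2a1d with TNF lie above all libraries in medium, and Bcl2l11 and Bbc3 in adult microglia with LPS lie below all those with PBS.

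Among the pro-survival genes, Mcl1 separated the cytokines. It was at 409 to 502 CPM in medium (median 439), 694 to 887 with TNF (median 814) and 317 to 430.2 with GM-CSF (median 371). All 11 TNF libraries were above all libraries of the other slice groups, and 7 of 9 GM-CSF libraries were below all in medium. With TNF the log2 fold change over medium was 0.83 (SE 0.06, adjusted p = 1.03e-13). With GM-CSF it was -0.27 (SE 0.06, adjusted p = 0.00130), under the fold limit, and with total counts it was -0.16 (adjusted p = 0.0542). Between the cytokines Mcl1 was 2.13-fold higher with TNF (log2 1.09, SE 0.06, adjusted p = 9.86e-17), and it was the only member called there, where 8.25% of all genes were called higher and 7.96% lower. Scaling by total counts moved the median of all genes from -0.02 to -0.19 and the share of higher calls from 50.9% to 31.4%, and Mcl1 stood at 0.92.

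Mcl1 stood at 459.9, 463, 402 and 426 CPM in the PBS libraries of adult microglia and at 667, 595, 694 and 643 CPM with LPS. The groups did not overlap, but the log2 fold change of 0.57 (SE 0.07, adjusted p = 5.56e-05) was just under the limit of 0.58, and Mcl1 was not called. Leaving out a library gave 0.53 to 0.61, and the gene passed the limit in 3 of 8 cases, among them without the LPS library that stood apart (0.61). In brain tissue Mcl1 was at 57.1, 62.9, 63.1 and 67.4 CPM without treatment and at 78.2, 77.9, 77.2 and 68.4 CPM with LPS. These groups did not overlap either, and the difference was 0.27 on the log2 scale (SE 0.06, adjusted p = 0.0103). Both differences passed the adjusted p and stayed below the fold limit.

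Bcl2l1, the gene of BCL-XL, was at 132 to 179 CPM in medium, 195 to 289.8 with TNF and 136 to 222 with GM-CSF, with medians of 163, 249.6 and 194. The TNF libraries did not overlap with those in medium, whereas the GM-CSF libraries did. Bcl2l1 rose by 0.63 on the log2 scale with TNF (SE 0.08, adjusted p = 4.12e-08), and the value was 0.23 with GM-CSF (SE 0.08, adjusted p = 0.0381). The TNF call depended on the limit: the value was 0.66 within codes 1A and 1B, 0.58 within 2A and 2B and 0.57 with total counts, the last pair being under the limit. LPS left Bcl2l1 at a log2 fold change of -0.03 in adult microglia (95% confidence interval -0.39 to 0.33) and of 0.12 in brain tissue (-0.05 to 0.28). Neither interval reached the fold limit.

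Bcl2 itself varied widely between slice libraries. It was at 4.82 to 27.2 CPM in medium (median 17.0), 4.57 to 25.4 with TNF (median 12.3) and 7.36 to 18.8 with GM-CSF (median 12.02), so the groups overlapped almost fully. The lowest libraries in medium were both of code 2A (4.82 and 5.38 CPM) and the highest were the 3 of code 2B (20.2 to 27.2 CPM). Its log2 fold change was -0.19 with TNF (95% confidence interval -0.75 to 0.37) and -0.22 with GM-CSF (-0.81 to 0.37), intervals that include changes past the fold limit. Within codes 2A and 2B the TNF value turned to 0.13.

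In adult microglia Bcl2 was at 10.05, 12.8, 11.8 and 15.5 CPM with PBS and at 22.0, 14.6, 24.9 and 23.4 CPM with LPS. The low LPS value is that of the library that stood apart, and the other 3 were above all PBS libraries. Bcl2 rose by 0.76 on the log2 scale (SE 0.18, adjusted p = 0.00345), and without that library the value was 0.90. Brain tissue had 27.1, 23.9, 24.2 and 26 CPM without treatment and 33.4, 31.8, 26.7 and 29.4 CPM with LPS. That difference of 0.26 on the log2 scale (SE 0.08, adjusted p = 0.0510) missed the test.

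In slice microglia Bcl2a1a and Bcl2a1d had the largest changes of the 10 genes with both cytokines, and the copies moved unequally. Bcl2a1a was at 7.77 to 21.5 CPM in medium (median 9.53), 69.4 to 144 with TNF (median 101) and 57.4 to 93.4 with GM-CSF (median 70.3). Bcl2a1d was at 6.61 to 13.8 CPM in medium (median 11.1), 38.9 to 91.8 with TNF (median 63.6) and 42.1 to 83.7 with GM-CSF (median 57.0). For both copies all libraries with either cytokine were above all in medium. Bcl2a1a was 8.69-fold higher with TNF (log2 3.12, SE 0.17, adjusted p = 8.71e-17) and 6.06-fold higher with GM-CSF (log2 2.60, SE 0.17, adjusted p = 1.26e-13). Bcl2a1d was 5.79-fold higher with TNF (log2 2.53, SE 0.16, adjusted p = 3.90e-15) and 5.37-fold higher with GM-CSF (log2 2.43, SE 0.17, adjusted p = 2.19e-13). Bcl2a1b, the copy with most counts in medium, moved far less.

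Bcl2a1b was at 64.9 to 105 CPM in medium (median 83.6), 96.9 to 154 with TNF (median 122) and 106 to 156 with GM-CSF (median 124). With TNF 8 of 11 libraries were above all in medium, and with GM-CSF 9 of 9. It was 1.42-fold higher with TNF (log2 0.50, SE 0.09, adjusted p = 4.37e-05), under the fold limit, and rose 1.54-fold with GM-CSF (log2 0.62, SE 0.10, adjusted p = 6.57e-06). Between the cytokines Bcl2a1b and Bcl2a1d were not called, with 95% confidence intervals of -0.31 to 0.07 and -0.19 to 0.40 for the log2 fold change of TNF over GM-CSF. Bcl2a1a was 0.52 higher with TNF on that scale (SE 0.15, adjusted p = 0.00762), under the fold limit.

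The make-up of the 3 copies' counts shifted accordingly. Bcl2a1b held 79.1% ± 3.12 (SD, n = 9) of these counts in the medium group. Its share was 42.3% ± 2.62 (n = 11) after TNF and 50.2% ± 3.26 (n = 9) after GM-CSF. Bcl2a1a held 10.8% ± 2.45, 35.9% ± 1.57 and 27.6% ± 1.80, and the ranges of the 3 groups did not overlap for this copy. The ratio of Bcl2a1a to Bcl2a1b counts, formed within each library and so free of scaling, was 0.0948 to 0.223 in medium, 0.716 to 0.989 with TNF and 0.452 to 0.701 with GM-CSF. Such a ratio shows that the counts of the copies changed unequally. Whether the transcripts or the assignment of shared reads did so cannot be told apart here.

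Summed over the copies, the counts do not depend on how reads shared among them were divided, although reads dropped as ambiguous are still missing. The sum was 83.0 to 134 CPM in medium (median 100.3), 205 to 390 with TNF (median 279) and 209 to 333 with GM-CSF (median 251.1). Both cytokine groups lay above medium without overlap. The sum rose 2.66-fold with TNF (log2 1.41, SE 0.11, adjusted p = 1.03e-12) and 2.43-fold with GM-CSF (log2 1.28, SE 0.12, adjusted p = 1.26e-10). Within codes 1A and 1B the log2 values were 1.46 and 1.35, and within 2A and 2B they were 1.46 and 1.25. TNF and GM-CSF differed by 0.13 (95% confidence interval -0.09 to 0.35), and this sign turned with total counts (-0.04).

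**Figure D3:**
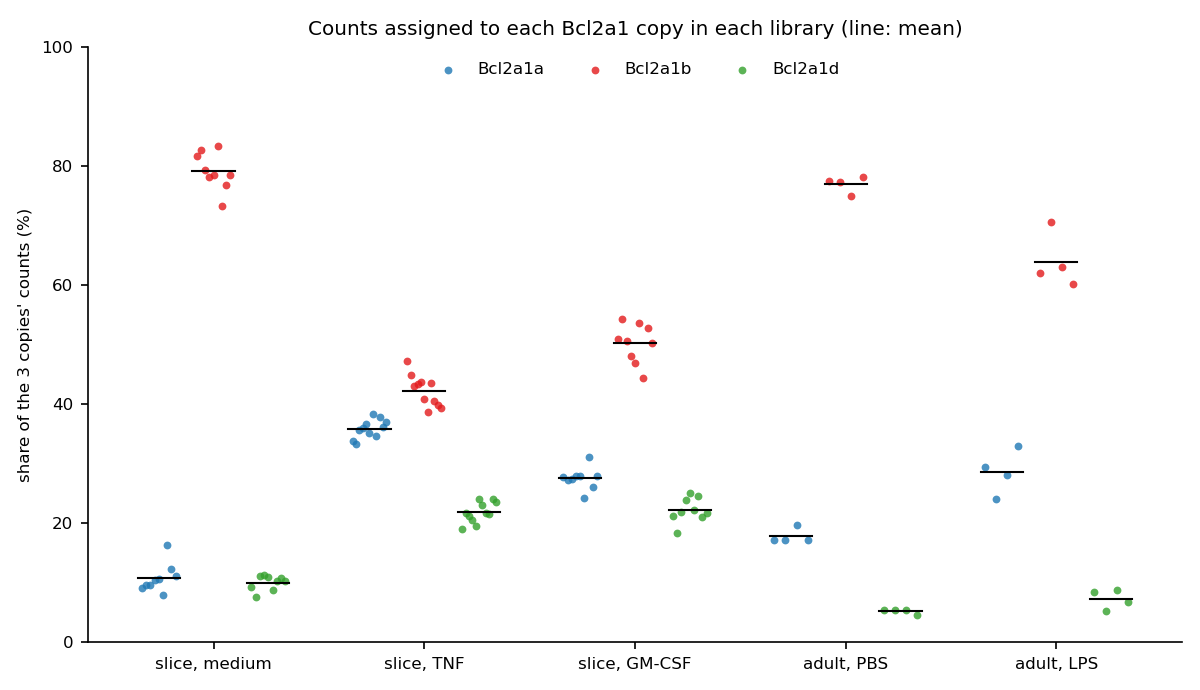
Share of the counts of the 3 Bcl2a1 copies that was assigned to each copy, in percent, in each library of slice and adult microglia, with a line at the group mean. The share of Bcl2a1b falls from 79.1% in medium to 42.3% with TNF, and from 77.0% with PBS to 64.0% with LPS.

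In adult microglia Bcl2a1a and Bcl2a1d rose, and Bcl2a1b was not called. Bcl2a1a was at 27.0, 25.5, 31.2 and 28.6 CPM with PBS and at 80.2, 42.3, 62.6 and 82.8 CPM with LPS. Bcl2a1d was at 8.47, 8.19, 8.54 and 7.57 CPM with PBS and at 23.0, 9.42, 19.6 and 17.1 CPM with LPS. All LPS libraries were above all PBS libraries for both, and the library that stood apart was the lowest of the LPS group each time. Bcl2a1a rose 2.39-fold (log2 1.26, SE 0.19, adjusted p = 0.000483) and Bcl2a1d 2.12-fold (log2 1.08, SE 0.23, adjusted p = 0.00201). Without that library the log2 values were 1.43 and 1.29.

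Bcl2a1b had 121.8, 114.9, 119 and 130.2 CPM with PBS and 169, 124, 140.7 and 150.7 CPM with LPS, which overlapped through the library that stood apart (log2 fold change 0.27, SE 0.09, adjusted p = 0.0252, and 0.34 without that library). The sum of the copies was 158 ± 7.28 CPM with PBS and 230.4 ± 41.5 with LPS (SD, n = 4 each), without overlap. Its log2 fold change of 0.55 (SE 0.11, adjusted p = 0.00189) was under the fold limit, and 0.66 without the library that stood apart, where it was called.

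In brain tissue the copies were near the limit of detection. Bcl2a1b had 4, 1, 3 and 0 counts without treatment and 23, 10, 6 and 18 with LPS. Bcl2a1a had 0, 3, 0 and 3 counts without treatment and 5, 10, 4 and 12 with LPS, while Bcl2a1d had at most 5 and 9 counts. For Bcl2a1a and Bcl2a1b the groups did not overlap. The sum of the copies, 9, 4, 3 and 3 counts without treatment and 32, 20, 19 and 30 with LPS, did not overlap either. It passed the expression filter only through the LPS group, where it is high, so its fitted log2 fold change of 2.54 (SE 0.35) is a description of these few counts and is not counted as a call. In the same libraries the 5 microglial markers summed to 191 to 219 CPM without treatment and 155 to 264 CPM with LPS. Of the 6 neutrophil markers 5 were listed, and they summed to 5.53 to 7.97 CPM without treatment and 11 to 15.5 CPM with LPS. Most of that sum was Csf3r (6.15 and 8.44 CPM on average), which stood at 628 CPM in adult microglia with PBS, where Ly6g was at 0.0741 CPM. S100a8 and S100a9 averaged 0.307 and 0.254 CPM without treatment and 1.79 and 2.19 CPM with LPS. Border macrophage markers summed to 2.30 to 3.73 CPM without treatment and 5.50 to 6.29 CPM with LPS (Mrc1 at 0), and oligodendrocyte markers to 4826 to 5180 and 3540 to 4094 CPM, both without overlap. The part of these markers in the result was not tested.

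Among the BH3-only genes, Bcl2l11 fell in all 3 microglia comparisons. The gene encodes BIM, which binds every pro-survival member. It was at 11.7 to 32.5 CPM in medium (median 22.9), 6.02 to 16.6 with TNF (median 12.7) and 5.65 to 18.1 with GM-CSF (median 11.5). Of the libraries with TNF 5 of 11, and of those with GM-CSF 5 of 9, were below all in medium, so the groups overlapped. The lowest libraries in medium were the 2 of code 2A (11.7 and 14.6 CPM), as seen after the fact. Within that code the TNF libraries (6.91 and 13.7 CPM) overlapped with medium, and the GM-CSF libraries (7.13 and 9.87 CPM) did not. Its log2 fold change was -0.95 with TNF (SE 0.21, adjusted p = 0.000466) and -1.02 with GM-CSF (SE 0.23, adjusted p = 0.000771). Within codes 1A and 1B it was -1.01 and -0.95, and within 2A and 2B it was -0.92 and -1.08.

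In adult microglia the Bcl2l11 groups were separate. PBS libraries had 71.7, 62.7, 65.3 and 63.7 CPM and LPS libraries 13.5, 28.6, 18.7 and 21.3 CPM. No LPS library came near the PBS range, and the library that stood apart was the highest of the LPS group. Bcl2l11 was 3.21-fold lower with LPS (log2 -1.68, SE 0.18, adjusted p = 4.09e-05), and -1.88 to -1.53 on the log2 scale when each library was left out. Brain tissue had 5.53, 6.41, 7.14 and 8.04 CPM without treatment and 6.33, 6.48, 8.10 and 6.85 CPM with LPS. No difference was found there (log2 0.03, 95% confidence interval -0.29 to 0.35).

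Bbc3, which encodes PUMA and is best known as a target of the tumour suppressor Trp53, also fell in adult microglia. It had 16.9, 16.4, 15.4 and 16.7 CPM with PBS and 6.86, 8.30, 9.98 and 6.18 CPM with LPS. All LPS libraries were below all PBS libraries, and Bbc3 was 2.09-fold lower (log2 -1.06, SE 0.15, adjusted p = 0.000118). In slice microglia it was at 12.3 to 22.1 CPM in medium, 9.44 to 17.0 with TNF and 8.41 to 17.1 with GM-CSF. The log2 fold changes of -0.38 (SE 0.15, adjusted p = 0.0359) and -0.54 (SE 0.15, adjusted p = 0.00755) were under the fold limit. In brain tissue the 4.78 ± 1.02 and 6.02 ± 1.13 CPM without and with LPS (SD, n = 4 each) overlapped, with a log2 fold change of 0.33 (95% confidence interval -0.07 to 0.73).

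The response of Bcl2l11 and Bbc3 to LPS differed between adult microglia and brain tissue by a test of the difference itself, an interaction over the 16 libraries of mice in vivo. The effect in adult microglia minus that in brain tissue was -1.72 for Bcl2l11 (SE 0.26, adjusted p = 4.43e-05) and -1.40 for Bbc3 (SE 0.24, adjusted p = 0.000167) on the log2 scale. In that test 19.7% of 16676 genes were called. Bcl2a1b also passed both limits (-2.67, SE 0.55, adjusted p = 0.000981), as the third of 3 members. However, the copies entered the test only through their counts in adult microglia, and their brain values are the few counts above. The value of Bcl2a1b is therefore a description of these counts and is not read as a call. Bak1 (0.57, SE 0.21, adjusted p = 0.0469) and Mcl1 (0.29, SE 0.10, adjusted p = 0.0294) were under the fold limit. The 6 other BH3-only genes tested were not called in the interaction (Bad 0.03, Bik -0.00411, Pmaip1 -0.14, Bmf -0.15, Bid -0.43 and Hrk -1.26). Neither were the 5 of them tested in adult microglia (-0.56 for Bid to 0.14 for Bad). There Bid passed the adjusted p (4.94e-05) and was just under the fold limit. Bnip3, another gene of the family, was lower in adult microglia (-1.003, adjusted p = 5.90e-06) and was called lower in the interaction. Tissue, library kit and kind of control coincide in this comparison and cannot be told apart. The 5 microglial markers summed to 191 to 219 CPM in untreated brain tissue and to 34447 to 38327 CPM in adult microglia with PBS. At so small a share, a fall of Bcl2l11 or Bbc3 confined to microglia could hardly show in brain tissue. The interaction therefore does not tell how microglia within the tissue responded, which was not tested.

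**Figure D4:**
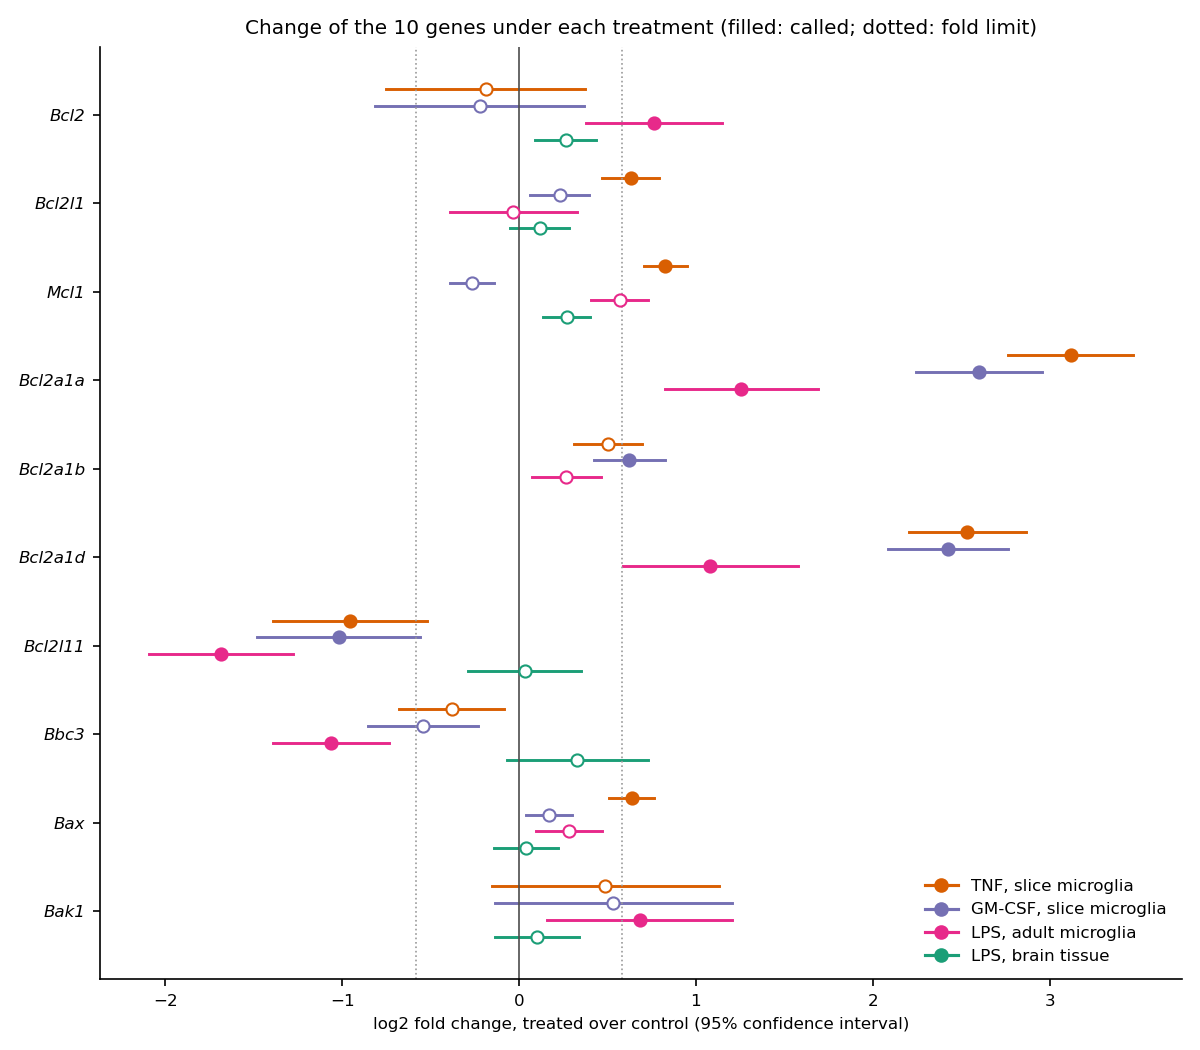
Log2 fold change of each gene under the 4 treatments with its 95% confidence interval, where filled points are called and dotted lines mark the fold limit. Bcl2l11 is below the limit in the 3 microglia comparisons and near 0 in brain tissue, and the Bcl2a1 copies are not drawn for brain tissue because they had too few counts.

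Of the pore formers, Bax rose with TNF and Bak1 with LPS in adult microglia. Bax was at 90.04 to 118 CPM in medium (median 108), 134 to 178 with TNF (median 162) and 106 to 131 with GM-CSF (median 117). TNF libraries were above all others in slice microglia, and the change over medium was 0.64 on the log2 scale (SE 0.06, adjusted p = 1.35e-10). As for Bcl2l1 this call sat near the limit, with 0.73 within codes 1A and 1B, 0.55 within 2A and 2B and 0.57 with total counts. With GM-CSF the value was 0.17 (SE 0.06, adjusted p = 0.0497), and TNF exceeded GM-CSF by 0.47 (SE 0.06, adjusted p = 1.34e-07), both under the limit. The pro-survival gene Bcl2l1 (0.63) and the pore former Bax (0.64) were thus both raised in the same libraries.

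In adult microglia Bax had 43.7, 46.2, 49.2 and 46.4 CPM with PBS and 57.5, 48.6, 62.2 and 57.2 CPM with LPS (log2 fold change 0.28, SE 0.0850, adjusted p = 0.0148), which overlapped through the library that stood apart. Without that library the value was 0.35 (adjusted p = 0.00135), still under the limit. In brain tissue its log2 fold change was 0.04 (95% confidence interval -0.14 to 0.22).

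Bak1 was the least abundant member in microglia, with medians of 14 counts in medium and 17 each with TNF and GM-CSF. At this depth no change was detectable with either cytokine (log2 0.49, 95% confidence interval -0.15 to 1.13, and 0.53, -0.14 to 1.20). In adult microglia it had 1.36, 1.44, 1.69 and 1.44 CPM with PBS and 2.63, 2.40, 2.23 and 2.28 CPM with LPS. These groups did not overlap, and Bak1 rose by 0.68 (SE 0.24, adjusted p = 0.0309), but at 19 to 36 counts per library this call was lost in 6 of 8 fits that left out a library (adjusted p = 0.0456 to 0.0801), with DESeq2 (adjusted p = 0.0553) and without the expression filter (adjusted p = 0.170). Brain tissue, where neurons and glia contribute, had 12.2 ± 1.20 CPM without treatment and 13.1 ± 1.49 with LPS (SD, n = 4 each), a log2 fold change of 0.10 (95% confidence interval -0.14 to 0.34).

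Ratios of counts within a library do not depend on scaling, and they are given as a description without a test. The median ratio of Bcl2l11 to Mcl1 was 0.0506 in medium, 0.0150 with TNF and 0.0334 with GM-CSF. In adult microglia it was 0.135 to 0.162 with PBS and 0.0202 to 0.0480 with LPS, without overlap, and in brain tissue 0.0968 to 0.119 and 0.0810 to 0.105, with overlap. TNF libraries (0.00679 to 0.0226) stood below all in medium (0.0269 to 0.0771), and GM-CSF libraries (0.0131 to 0.0470) overlapped with them. The median ratio of Bax to Bcl2 was 6.36 in medium, 12.1 with TNF and 9.90 with GM-CSF, all overlapping, and was 3.88 with PBS and 2.55 with LPS, where the groups also overlapped. That of Bcl2l1 to Bcl2 was 9.45 to 17.8 with PBS and 5.70 to 8.16 with LPS, without overlap.

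The promoters of Bcl2l11 and Bbc3 were inspected because both genes fell in adult microglia. FOXO factors, which bind the letters GTAAACA, are known to drive both genes. RefSeq promoter windows (GRCm38, 250 bases before to 50 after a start) were found for 10 of 10 members, 15 windows in all, and the letters were searched on both strands after the changes were known. They were present in 2 of 10 members, Bcl2l11 (227 bases before a start) and Bbc3 (167 bases before a start), and in 3.65% of 32851 windows of all genes (4.05% of 27025 genes). The stretches around them are shown on the plus strand with the match in capitals, read from the other strand in Bbc3 (chr2:128125791-128125877 and chr7:16310074-16310160):
Bcl2l11: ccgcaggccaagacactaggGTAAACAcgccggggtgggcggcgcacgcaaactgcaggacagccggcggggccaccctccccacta
Bbc3: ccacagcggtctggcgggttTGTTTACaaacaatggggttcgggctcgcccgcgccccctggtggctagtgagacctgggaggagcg
The kB consensus bound by NF-kB, searched on both strands, was found in windows of 2 of 10 members, Bcl2l1 and Bbc3, and in 5.81% of all windows. A match is a description of the letters, not of binding. GTAAACA was chosen with the fall of Bcl2l11 and Bbc3 known, so its presence in their windows is no test. A role of FOXO factors was not tested.

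Other genes of the pathway were examined in 4 lists with 39 genes in all. Of the other BCL2 family genes, 11 of 15 were tested in slice microglia. With TNF 1 rose and 3 fell: Bcl2a1c, a further copy with at most 28 counts per library (log2 2.42, adjusted p = 7.30e-06), rose, and the BH3-only genes Bmf (log2 -1.27, adjusted p = 0.000114), Bik (-0.82, adjusted p = 0.0468) and Bid (-0.78, adjusted p = 2.98e-06) fell. With GM-CSF Bcl2a1c rose (2.20, adjusted p = 9.38e-05) and Pmaip1, the gene of the BH3-only protein NOXA, fell (-0.65, adjusted p = 0.00136). With LPS in adult microglia 1 of 9 tested fell, Bnip3 (-1.003, adjusted p = 5.90e-06), a gene of mitochondrial turnover. The list medians were -0.00230 (TNF), -0.34 (GM-CSF), -0.12 (LPS in adult microglia) and 0.03 (LPS in brain tissue), against -0.03, -0.04, 0.01 and 0.00285 over all genes.

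Downstream of the mitochondrion, 10 of 10 genes of caspase activation and its inhibitors were tested. TNF raised 3 of them: Birc3, an inhibitor of cell death and NF-kB target (log2 2.02, adjusted p = 8.71e-19), Cycs, the gene of cytochrome c (0.96, adjusted p = 4.67e-12), and Apaf1, which with cytochrome c builds the apoptosome (0.69, adjusted p = 0.00537). GM-CSF raised Cycs (0.68, adjusted p = 9.03e-08). LPS in adult microglia raised Cycs (0.68, adjusted p = 6.67e-05), Birc3 (0.62, adjusted p = 0.00512) and Apaf1 (0.60, adjusted p = 0.0193) and lowered the executioner caspase gene Casp6 (-0.80, adjusted p = 0.000208). The medians were 0.14, -0.07, -0.07 and 0.04 in the same order.

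Of 8 upstream regulators, all tested, TNF raised Cdkn1a (1.31, adjusted p = 2.53e-16) and Mdm2 (0.86, adjusted p = 1.95e-08), both known targets of Trp53, and lowered Foxo3 (-0.82, adjusted p = 0.00605). LPS in adult microglia raised Cdkn1a (0.99, adjusted p = 0.000312) and lowered Foxo3 (-0.99, adjusted p = 0.000187). Foxo3 was at 9.06 ± 1.99 CPM with LPS and 17.95 ± 0.841 with PBS (SD, n = 4 each). With GM-CSF, where Bcl2l11 also fell, 0 of the 8 were called. The part of Foxo3 in the results above was not tested. The medians were 0.22, 0.09, 0.12 and 0.08.

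In the death receptor arm, through which TNF family ligands start apoptosis, 5 of 6 genes were tested in microglia. TNF raised Fas (2.08, adjusted p = 1.93e-09) and Cflar, an inhibitor of caspase 8 (0.88, adjusted p = 8.85e-06), whereas GM-CSF lowered Fas (-0.89, adjusted p = 0.00571). LPS raised Fas in adult microglia (1.46, adjusted p = 0.00117) and Casp8 in brain tissue (0.80, adjusted p = 0.0299), the only gene of the 4 lists called there. The medians were 0.22, -0.18, 0.14 and 0.44. Over the 4 lists, 12 of 34 tested genes were called with TNF, 4 of 34 with GM-CSF, 8 of 32 in adult microglia and 1 of 34 in brain tissue. Over all genes the shares called in either direction were 20.8%, 10.8%, 27.4% and 3.18%, so that the counts with GM-CSF, in adult microglia and in brain tissue were near or below the background. TNF against GM-CSF gave 8 higher and 1 lower of 34, led by Fas (2.97) and Birc3 (2.11), where 16.2% of all genes were called, and the interaction of tissue and LPS gave 1 higher and 4 lower of 35, led by Casp8 (-1.23) and Bnip3 (-1.10), where 19.7% were called.

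**Figure D5:**
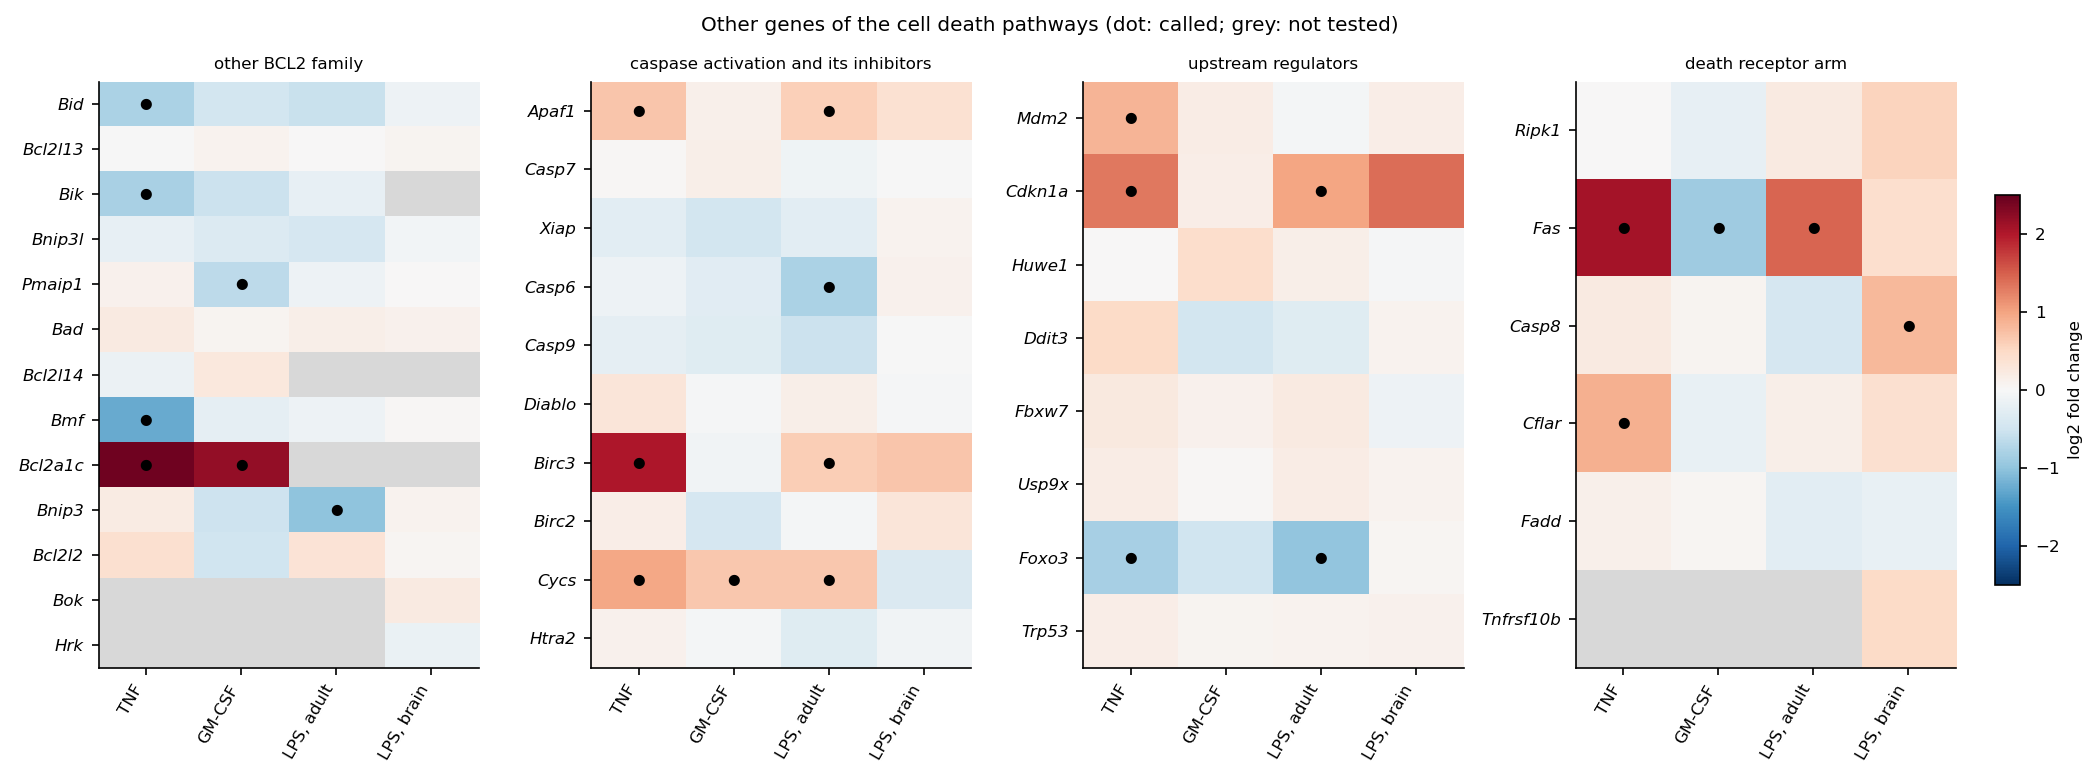
Log2 fold change of the tested genes of the 4 pathway lists under the 4 treatments, where a dot marks a called gene and grey a gene not tested. TNF has the most dots (12), and in brain tissue only Casp8 has one.

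The genes most like the member with the largest change in each table are given as a description. Over the 29 slice libraries, log2 CPM of Bcl2a1a correlated best with its copy Bcl2a1d (Pearson r = 0.984), with which it shares reads, then with the scavenger receptor gene Msr1 (0.980) and the chemokine gene Ccl2 (0.975). Over the 8 adult libraries, Plekhm3 (0.996) and Mbnl2 (0.996) were among the genes that went most closely with Bcl2l11. Over the 8 brain libraries Bbc3, whose change did not pass the test, went most closely with Zfp865 (0.978), Rabac1 (0.968) and Tmem191c (0.963). The libraries of a table share their groups and scaling, so these values carry no test.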

How the data were processed

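Gene-level values of 45 libraries were analysed. The authors deposited counts of reads per gene for slice microglia (STAR 2.7.0a, featureCounts of Subread 1.6.4 and mm10 are named in the submitters' processing notes) and expected counts for adult microglia and brain tissue (mm10, with tools not given in the sources used here), none of them normalized. How reads that fit several genes were treated, and whether strand was used, is not given in the sources used here. The expected counts held 70872 (adult) and 69680 (brain) values that were not whole, and the slice counts held 0. Reads shared by the Bcl2a1 copies may thus have been counted differently in slice microglia than in the other tables. Expected counts were rounded. The brain table had 92 rows that name no gene, which held 0 counts and were left out. The GENCODE M21 annotation named 55450 of 55450, 47224 of 47643 and 42929 of 43411 identifiers.

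Counts were tested in R 4.3.3 with edgeR 4.0.16 (quasi-likelihood, robust, TMM, genes kept by filterByExpr at min.count 10 and min.total.count 15) and adjusted over all genes tested. The 29 slice libraries were fitted together, the adult and brain libraries alone, and the interaction over 16 libraries. DESeq2 1.42.0 was an alternative, as were other scalings, no filter, no fold limit, a replicate block, title codes, summed Bcl2a1 copies and leaving out each in vivo library. The fits were checked on simulated counts. CPM are TMM-scaled and errors are SD over libraries. Libraries carry no molecular identifiers. All 10 members were described, at most 8 called genes per list and comparison were named by size of change, and for the member with the largest change in a table the 3 genes of highest Pearson correlation. The members and lists were chosen with earlier results of these data known. Sums with Bcl2a1c and Gm29094 were added after seeing the data. Results for a few further genes of the lists are not reported here, and counts and sums leave them out.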

Additional observations from a re-analysis of the deposited data

Results flagged for a closer look

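In brain tissue with LPS, Mcl1 in replicate 4 (68.4 CPM) lay far below the other 3 libraries, the nearest of which was at 77.2 CPM, and it was still above all untreated libraries. In untreated brain tissue, Bcl2a1d in replicate 1 (0.503 CPM, 5 counts) lay apart from the other 3 libraries, which were at 0. Such a gap was found in 2 of 60 groups examined, and chance alone gives about 1 in 20. The effect of LPS in adult microglia minus that in brain tissue passed its test for Bcl2l11 (-1.72 on the log2 scale) and Bbc3 (-1.40). Bcl2a1b stood at -2.67, but it entered the test only through its counts in adult microglia. The brain libraries held at most 23 counts of it, so this value is a description and is not read as a call.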

How the results depend on the processing

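Of 83 alternative counts of called members, 70 stayed within 1.5 times the reported count. The TNF count fell from 6 to 4 with total counts and with codes 2A and 2B alone. With adjusted p alone and no limit on the fold, 8 members were called with GM-CSF (4 with the limit), 4 between the cytokines (1), 1 in brain tissue (0) and 5 in the interaction (3). The interaction counts include Bcl2a1b, which is not read as a call. With the Bcl2a1 copies summed, 2 genes were called with GM-CSF. In brain tissue the sum alone then passed both limits. It passed the expression filter only through the LPS group and is not counted as a call. Codes 2A and 2B alone gave 2 calls between the cytokines. Without the expression filter 2 copies (Bcl2a1a and Bcl2a1b) were called in brain tissue, and leaving out each library gave 0 to 1 there (Bcl2a1b, which then passed the filter, without LPS replicate 3 or any 1 of the untreated libraries). The sum of the copies between the cytokines turned to -0.0399 with total counts, and in adult microglia leaving out each library gave 0.45 to 0.66, called only without LPS replicate 2. Adding Bcl2a1c and then Gm29094 to the sum, chosen after seeing the data, gave at most 1.42 for TNF, 1.29 for GM-CSF, 0.56 in adult microglia and 2.54 in brain tissue.

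Members that were not called changed sign as follows. For TNF against GM-CSF, total counts turned Bcl2 (-0.14), Bcl2a1d (-0.0645), Bcl2l11 (-0.11) and Bbc3 (-0.00815), codes 1A and 1B alone turned Bcl2 (-0.31), Bcl2l11 (-0.0676) and Bak1 (0.0552), and the replicate block turned Bcl2 (-0.21) and Bcl2a1d (-0.00596). For TNF, codes 2A and 2B alone turned Bcl2 (0.13). Leaving out each library gave -0.16 to 0.10 for Bcl2l1 in adult microglia, -0.0541 to 0.124 for Bcl2l11 and -0.0338 to 0.0764 for Bax in brain tissue, and -4.03 to 0.85 for Bcl2a1d in the interaction. The causes were not tested.

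Replicate numbers did not pair the samples: same-numbered libraries had correlations of -0.0415 to 0.184 (slices), -0.0330 to 0.0206 (adult) and -0.0779 to 0.0428 (brain). Between medium and TNF these were 0.0899 to 0.184 in the 5 pairs that also shared a title code and 0.0412 to 0.0801 in the other 4. With title code as a covariate the members called were those of the reported fit, 6 for TNF, 4 for GM-CSF and 1 between the cytokines. With the replicate block the calls were 6 for TNF, 4 for GM-CSF, 1 between the cytokines, 5 in adult microglia, 0 in brain tissue and 3 in the interaction. Leaving out single slice libraries was not run. Depth limits Bak1 in microglia and the Bcl2a1 copies in brain tissue.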
